A study of Mus musculus with 12 samples.

Results

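The genes described here make, carry, sense and break down retinoic acid. They were taken from the deposited count table by symbol and are 9 of its 55401 genes: Rdh10, Aldh1a1, Aldh1a2 and Aldh1a3 for synthesis, Crabp2 for transport, Rara, Rarb and Rarg as receptors, and Cyp26b1 for breakdown. The libraries are bulk RNA-seq of peritoneal lavage cells from C57BL/6J mice, 4 in each of 3 groups. The first group, called ID8 here, had received an intraperitoneal injection of the line labelled ID8 (defb29/Vegf-a), a mouse ovarian cancer line derived from ovarian surface epithelium and, per its label, modified with Defb29 and Vegf-a. The second, called ID8-FSHR, had received the line labelled ID8 (defb29/Vegf-a) FSHR, which was made to overexpress the follicle-stimulating hormone receptor and shares the Defb29 and Vegf-a modification. The third received no injection. Lavage used 8 mL of saline and was done on day 7 after injection in the injected groups. The age of the mice, the promoters of the introduced genes and whether each line is a single clone are not given in the labels. Since injection always came with tumour cells, the effects of either cannot be told apart.

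Retinoic acid is made from vitamin A in successive oxidations. Rdh10 encodes the main dehydrogenase that turns retinol into retinaldehyde, and the retinaldehyde dehydrogenases encoded by Aldh1a1, Aldh1a2 and Aldh1a3 turn that into retinoic acid. CRABP2 brings retinoic acid to the nucleus, where the receptors RARA, RARB and RARG bind DNA as dimers with retinoid X receptors and switch genes on or off with ligand. CYP26 enzymes oxidise retinoic acid and end its action. In the peritoneal cavity, cells of the mesothelium and its underlying stroma are a known source of retinoic acid, which maintains the transcription factor GATA6 in large resident macrophages.

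Total counts ran from 47419608 to 64333677 over the 12 libraries, and a gene with 0 counts may have had up to 3 counts, which is 0.0444 to 0.0653 CPM, the count scaled to a common library size. Such limits and the interval given for Crabp2 cover counting error only. A lavage is a mixture of cells, and fewer cells of a type and less RNA per cell cannot be told apart. Defb29, a gene introduced into both lines, had 0 counts in the uninjected libraries and group means of 26.2 CPM (ID8) and 18.5 CPM (ID8-FSHR). Fshr had 0 to 7 counts in any library and 0 in ID8-FSHR replicates 1 and 2, so its mouse counts did not check that label, and the form of the introduced receptor is not given in the labels. ID8-FSHR replicate 2 stood apart: on the first principal component it was at -24.8, against -68.7 to -60.7 for the other 7 tumour libraries and 116 to 121 for the uninjected ones. The summed level of 13 genes of mesothelium and ovarian surface epithelium was 22.3 to 25.4 CPM in the uninjected mice, 6585 to 8364 CPM in ID8 and 1879 to 5512 CPM with ID8-FSHR, lowest in that replicate. Of these 13 markers, 12 were called higher in ID8 and 11 in ID8-FSHR, and all had counts in each group. Cells of the mesothelium and injected cells of ovarian surface origin share these markers and cannot be told apart by them. The summed level of 9 markers of large resident macrophages was 9575 to 11629 CPM without injection, 4706 to 6032 CPM in ID8 and 3281 to 5864 CPM with ID8-FSHR, and 8 of the 9 were called lower in ID8 and 7 in ID8-FSHR. Gata6 was called higher in each. The largest of the 9 was Alox15, at means of 5276, 2697 and 2205 CPM in the same order of groups. For 8 markers of B cells the ranges were 2743 to 3575, 349.6 to 496 and 302 to 531 CPM, with all 8 called lower in each tumour group. For 8 fibroblast markers they were 42.4 to 65.4, 472 to 592 and 256 to 439.6 CPM, with Dpt at 0 in the uninjected mice. Of 6 tested, 5 were called higher and 1 lower in ID8, and 5 higher and 0 lower in ID8-FSHR. These sums rest mainly on Pi16 without injection and on Dcn with tumour. In the same order of groups Pi16 had means of 45.1, 20.6 and 34.5 CPM, and Dcn 3.91, 457 and 291 CPM. The part of these shifts in the values below was not tested.

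With ID8 tumour, the genes for the first oxidation and for 1 of the retinaldehyde dehydrogenases were far higher than in uninjected lavage, while the dehydrogenase that dominated there and 2 of the 3 receptors were lower. Of the 9 genes, 8 passed the filter on low counts and were tested, and Aldh1a3 passed only through the tumour groups. At an adjusted p under 0.05 in edgeR's quasi-likelihood test, 2 of the 8 were higher and 3 were lower in ID8 than in the uninjected mice, where 64.1% of the 16915 genes tested were called, 32.7% as higher and 31.4% as lower. For 4 of the 8 there was no overlap between the groups, against 62.5% of all genes tested. The median log2 difference of the 8 was 0.33, and that of all genes tested -0.03. In ID8-FSHR against the uninjected mice 4 were higher and 2 lower, with 64.5% of all genes called, 33.9% as higher and 30.6% as lower, and 4 of the 8 had groups that did not overlap, against 57.0% of all genes. The median of the 8 was 0.63, beside 0.00083 for all genes. These shares are near the background, so the counts alone do not set these genes apart from the rest of the transcriptome. The comparisons with the uninjected mice share the same 4 control libraries.

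**Figure D1:**
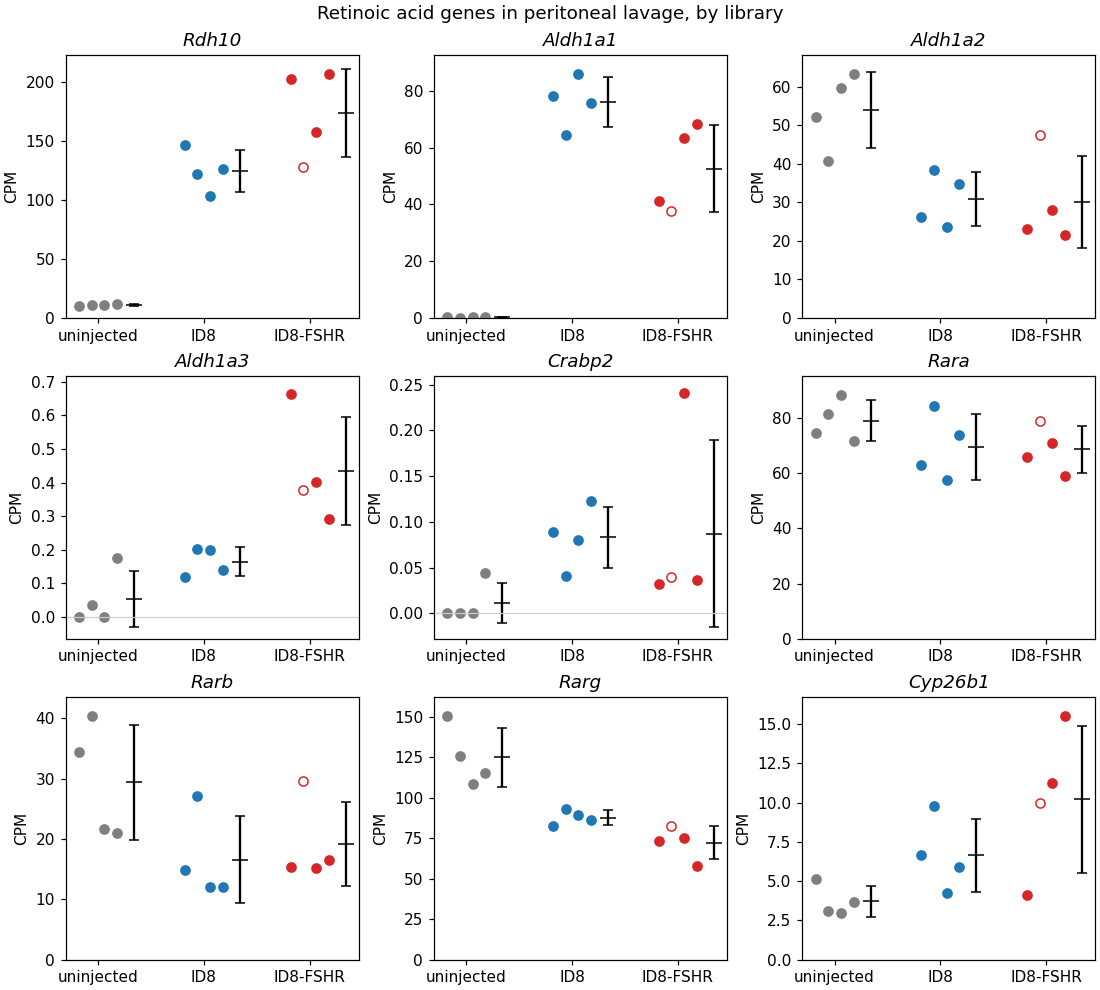
Level of each of the 9 genes in each of the 12 libraries, in CPM, by group. Points are libraries, bars the mean with the SD of 4 libraries, and the open circle is ID8-FSHR replicate 2. Rdh10 lies between 10.3 and 12.02 CPM without injection and at 103 CPM or more in every tumour library, and Aldh1a1 goes from at most 0.218 CPM to at least 37.6 CPM.

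Rdh10 (ENSMUSG00000025921.7) lies on the plus strand of chromosome 1 at chr1:16105774-16133734 in GRCm38, with 6 exons. Exon numbers here and below are merged exon blocks over all annotated transcripts of a gene, not the exons of any 1 transcript. In the uninjected mice it was at 10.3, 10.8, 10.5 and 12.02 CPM in replicates 1 to 4. In ID8 it was at 146, 122, 103 and 127 CPM, and in ID8-FSHR at 202, 128, 157 and 207 CPM. Every tumour library lay far above every uninjected library, and the ID8 and ID8-FSHR ranges overlapped. The mean was 10.9 ± 0.776 CPM (SD, n = 4) without injection and 125 ± 17.6 CPM (SD, n = 4) in ID8, an 11.4-fold difference with a log2 fold change of 3.51 (SE 0.16, adjusted p = 2.07e-09). In ID8-FSHR the mean was 174 ± 37.6 CPM (SD, n = 4), 15.9-fold above the uninjected mice (log2 fold change 3.99, SE 0.16, adjusted p = 1.65e-09). The log2 fold change stayed between 3.43 and 3.60 for ID8 and between 3.90 and 4.22 for ID8-FSHR over 21 alternative fits each.

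Aldh1a1 (ENSMUSG00000053279.8, chr19:20492715-20643465, plus strand, 21 exons) was nearly silent in uninjected lavage, with 6, 2, 10 and 10 counts in the 4 libraries, or 0.118, 0.0369, 0.202 and 0.218 CPM. In ID8 it was at 78.2, 64.7, 85.9 and 75.8 CPM. In ID8-FSHR it was at 41.2, 37.6, 63.4 and 68.3 CPM. ID8-FSHR replicates 1 and 2 were low within their group, and both still lay far above every uninjected library. The fitted difference was 534-fold for ID8 (log2 fold change 9.06, SE 0.33, adjusted p = 1.09e-09) and 369-fold for ID8-FSHR (8.53, SE 0.33, adjusted p = 1.65e-09). At such low control counts the exact size rests on few reads. Among its 50-base stretches 3.06% also occur in the neighbouring copy Aldh1a7, and the counting of reads that map to several places was not given in the sources used here. Aldh1a7 had 0 counts in the uninjected mice and means of 3.42 CPM with ID8 and 2.42 CPM with ID8-FSHR, at least 228-fold and 162-fold above 3 counts over the uninjected group.

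Aldh1a2 (ENSMUSG00000013584.5, chr9:71215789-71296243, plus strand, 14 exons) went the other way. It was at 52.1, 40.8, 59.7 and 63.2 CPM in the uninjected mice and at 26.2, 38.5, 23.6 and 34.7 CPM in ID8. In ID8-FSHR it was at 23.2, 47.5, 27.9 and 21.5 CPM. All ID8 libraries lay below all uninjected libraries, whereas ID8-FSHR replicate 2 lay inside the uninjected range. The level fell by 0.81 on the log2 scale in ID8 (SE 0.24, adjusted p = 0.0103) and by 0.85 in ID8-FSHR (SE 0.24, adjusted p = 0.00811), and without replicate 2 of ID8-FSHR by 1.06 (adjusted p = 0.00039). Markers of large resident macrophages and of B cells were lower in the same libraries. Other types also had lower calls. In ID8 these were 5 of 6 markers of T cells, 4 of 7 of dendritic cells, 3 of 6 of monocytes and 3 of 5 of mast cells. The calls of higher numbered 0, 1, 1 and 1. In ID8-FSHR, in the same order, 1, 4, 1 and 4 were lower and 0, 1, 3 and 1 higher. Of all genes tested 31.4% were called lower in ID8 and 30.6% in ID8-FSHR. The part of these cells in this difference was not tested.

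The promoter windows of Aldh1a1 and Aldh1a2 are shown because these genes moved in opposite directions. Each window runs from 250 bases before to 50 bases after an annotated start, from RefSeq on GRCm38.p6, and 6 of the 9 genes matched 11 such windows. Capitals mark the octamer ATGCAAAT, the letters known for binding POU factors, which was chosen after these windows had been read and was searched on both strands. It occurs in 570 of 32851 windows of this length (1.74%). Aldh1a1 has 2 windows, and the octamer is in 1 of them, chr19:20601718-20602017 on the plus strand, where it starts 56 bases before the start site, and not in the other, chr19:20492333-20492632. The Aldh1a2 window is chr9:71215539-71215838 on the plus strand, with the octamer 84 bases before it.
Aldh1a1: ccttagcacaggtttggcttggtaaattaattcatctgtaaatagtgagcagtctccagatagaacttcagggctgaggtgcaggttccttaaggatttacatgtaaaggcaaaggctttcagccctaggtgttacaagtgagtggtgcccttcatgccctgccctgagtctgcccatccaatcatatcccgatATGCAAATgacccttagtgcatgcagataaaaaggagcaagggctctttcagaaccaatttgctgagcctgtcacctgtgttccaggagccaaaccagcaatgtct
Aldh1a2: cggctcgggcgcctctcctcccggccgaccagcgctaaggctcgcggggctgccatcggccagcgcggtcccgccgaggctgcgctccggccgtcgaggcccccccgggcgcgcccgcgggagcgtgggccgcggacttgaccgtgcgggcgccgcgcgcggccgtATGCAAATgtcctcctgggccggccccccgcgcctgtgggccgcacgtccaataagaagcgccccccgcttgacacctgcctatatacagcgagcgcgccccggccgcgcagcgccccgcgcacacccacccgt

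The share of each retinaldehyde dehydrogenase in the 3-gene total was computed on CPM per kilobase of merged exons, so that genes of unequal length can be compared. Aldh1a2 made up 99.8% ± 0.0935 (SD, n = 4) of the total without injection, 46.5% ± 8.37 (SD, n = 4) in ID8 and 54.3% ± 13.8 (SD, n = 4) in ID8-FSHR. Aldh1a1 made up 0.115% ± 0.0546 (SD, n = 4), 53.4% ± 8.37 (SD, n = 4) and 45.3% ± 13.8 (SD, n = 4) in the same order. Its share was lowest among tumour libraries in ID8-FSHR replicate 2, at 26.6%, and highest in ID8 replicate 3, at 62.5%. The total itself was 23.9 ± 4.40 CPM per kilobase without injection, 29.0 ± 1.61 in ID8 and 24.01 ± 4.14 in ID8-FSHR (SD, n = 4 each). The make-up of the total therefore differed by far more than the spread between libraries, while the ranges of the total overlapped between the groups.

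**Figure D2:**
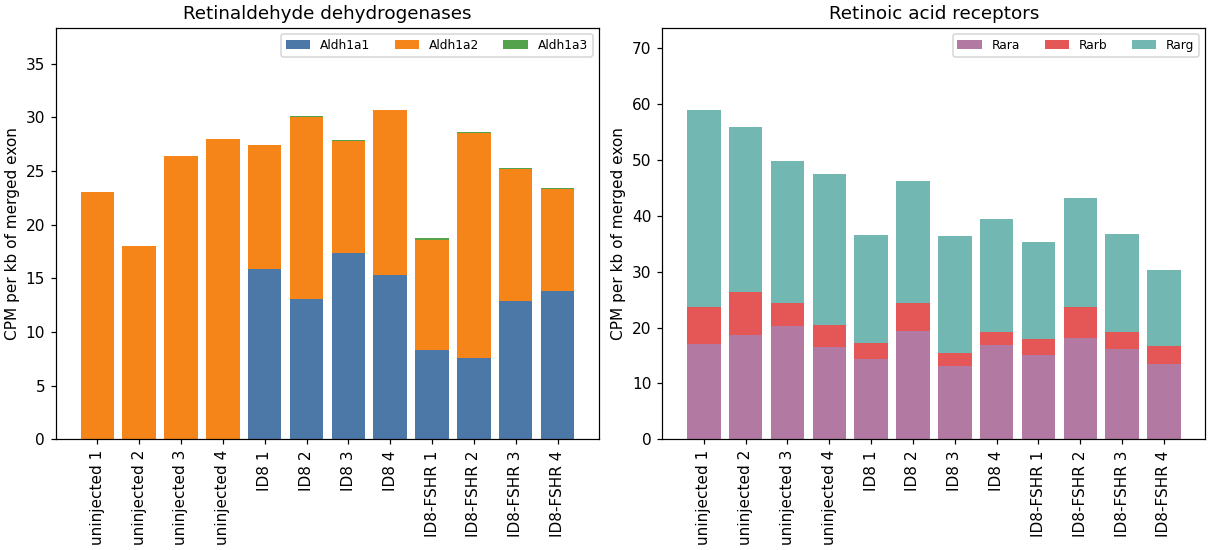
Levels of the 3 retinaldehyde dehydrogenases (left) and the 3 retinoic acid receptors (right) in each library, stacked, in CPM per kilobase of merged exons. Each bar is 1 library. Aldh1a2 makes up at least 99.7% of each uninjected bar and shares the tumour bars with Aldh1a1, whereas Rarg is the largest receptor in the mean of each group.

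Aldh1a3 (ENSMUSG00000015134.15, chr7:66390890-66427517, minus strand, 15 exons) stayed near the limit of detection. It had 0, 2, 0 and 8 counts in the uninjected libraries, 8, 10, 10 and 8 counts in ID8, and 42, 19, 20 and 16 counts in ID8-FSHR. All ID8-FSHR libraries lay above all others in CPM, from 0.292 to 0.664. The gene was 8.20-fold higher in ID8-FSHR than in the uninjected mice (log2 fold change 3.04, SE 0.80, adjusted p = 0.00506). Since it entered the test only through tumour libraries, that value and its place among the 4 called higher describe the gene and support nothing. In ID8 the difference from the uninjected mice was 1.64 (SE 0.83, adjusted p = 0.103), and it rested on uninjected replicate 4, which held 8 of the 10 counts of that group: without it the values were 3.46 (adjusted p = 0.00424) for ID8 and 4.85 for ID8-FSHR.

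Crabp2 (ENSMUSG00000004885.5, chr3:87948666-87953376, plus strand, 4 exons), the carrier of retinoic acid to the nucleus, did not pass the filter and was not tested. It had 0, 0, 0 and 2 counts in the uninjected libraries, 6, 2, 4 and 7 in ID8, and 2, 2, 12 and 2 in ID8-FSHR. Replicate 3 held 12 of the 18 counts of ID8-FSHR. The summed counts of 19 in ID8 and 2 in the uninjected mice gave a ratio of 8.48 after scaling, with an exact binomial 95% interval of 2.04 to 75.0, and the ratio for ID8-FSHR was 8.26 (1.98 to 73.4). These intervals do not hold the spread between mice, and the libraries overlapped between groups.

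Rarg (ENSMUSG00000001288.15, chr15:102234938-102257517, minus strand, 15 exons) was the most abundant receptor per kilobase in uninjected lavage. It was at 150.4, 126, 109 and 116 CPM there, at 82.7, 93.0, 89.3 and 86.5 CPM in ID8, and at 73.5, 82.8, 75.2 and 58.0 CPM in ID8-FSHR. All tumour libraries lay below all uninjected libraries. The level fell by 0.51 on the log2 scale in ID8 (SE 0.11, adjusted p = 0.00166) and by 0.79 in ID8-FSHR (SE 0.11, adjusted p = 5.22e-05). Each call held without any 1 of the 12 libraries, with an adjusted p of at most 0.00704 for ID8 and 0.00023 for ID8-FSHR.

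Rara (ENSMUSG00000037992.16, chr11:98927818-98974942, plus strand, 14 exons) was at 74.5, 81.5, 88.2 and 71.8 CPM without injection, at 62.8, 84.3, 57.5 and 73.8 CPM in ID8, and at 65.8, 78.9, 70.8 and 59.0 CPM in ID8-FSHR. The 3 groups overlapped. The log2 difference from the uninjected mice was -0.18 (SE 0.12, adjusted p = 0.208) in ID8 and -0.20 (SE 0.12, adjusted p = 0.161) in ID8-FSHR, and neither passed the test.

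Rarb (ENSMUSG00000017491.9, chr14:16430839-16819156, minus strand, 11 exons), a receptor gene that is itself a known target of retinoic acid, was at 34.4, 40.3, 21.7 and 21.04 CPM without injection. It was at 14.9, 27.2, 12.1 and 11.97 CPM in ID8 and at 15.4, 29.6, 15.3 and 16.6 CPM in ID8-FSHR. Replicate 2 was the highest library of each group, and the groups overlapped. The level fell by 0.83 on the log2 scale in ID8 (SE 0.31, adjusted p = 0.0330). Leaving out ID8 replicate 1, 3 or 4 or uninjected replicate 1 or 2 ended that call, at an adjusted p of 0.0778 to 0.108. In ID8-FSHR the difference was -0.61 (SE 0.31, adjusted p = 0.101), and without its replicate 2 it was -0.80 (adjusted p = 0.0489).

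Rarb counts are uncertain because its exons overlap those of another gene. Of the exon bases of Rarb, 34.1% lie within exons of Top2b on the opposite strand, and 4.31% within the antisense gene Gm48162. With the strand setting of the counting not given in the sources used here, reads of the pair cannot be told apart. Top2b, which encodes a DNA topoisomerase, was at 279.2 to 317 CPM in the uninjected mice, 178 to 199.5 CPM in ID8 and 189.5 to 215 CPM in ID8-FSHR. It fell by 0.63 on the log2 scale in ID8 and by 0.57 in ID8-FSHR (adjusted p = 2.4e-06 and 6.4e-06). Its part in the Rarb values was not tested.

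The promoter of Rarb is shown because it carries the best known response element for retinoic acid receptors, a direct repeat whose units are 5 bases apart. The windows were searched on both strands for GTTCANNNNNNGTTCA, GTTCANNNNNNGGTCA, GGTCANNNNNNGTTCA and GGTCANNNNNNGGTCA, which hold the last 5 letters of each unit. Any of these letters occurs in 81 of 32851 windows (0.247%), and the first form in 25 (0.0761%). Among the 11 windows of the genes described here, the Rarb window alone held a match. It is chr14:16575427-16575726 on the minus strand, and the match, in capitals with the leading base of its first unit, starts 53 bases before the start site.
Rarb: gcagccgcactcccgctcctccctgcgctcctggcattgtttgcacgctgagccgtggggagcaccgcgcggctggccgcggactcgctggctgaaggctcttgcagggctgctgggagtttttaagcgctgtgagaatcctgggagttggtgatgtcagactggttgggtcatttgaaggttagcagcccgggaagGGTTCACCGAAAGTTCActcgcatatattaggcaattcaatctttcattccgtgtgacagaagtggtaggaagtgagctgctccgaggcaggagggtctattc
The gene with this element was lower in ID8 lavage, with the limits given above.

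The receptors together were at 53.04 ± 5.27 CPM per kilobase without injection, 39.7 ± 4.61 in ID8 and 36.4 ± 5.30 in ID8-FSHR (SD, n = 4 each). Rarg made up 55.2% ± 3.97 (SD, n = 4) of the total without injection, 52.3% ± 4.28 (SD, n = 4) in ID8 and 46.7% ± 2.03 (SD, n = 4) in ID8-FSHR. Rara made up 34.4%, 40.0% and 43.4% in the same order, and Rarb 10.4%, 7.73% and 9.91%. The order of the receptors by mean share, Rarg then Rara then Rarb, was the same in the 3 groups.

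Cyp26b1 (ENSMUSG00000063415.12, chr6:84571414-84593908, minus strand, 9 exons), which encodes a retinoic acid-degrading enzyme, was at 5.11, 3.08, 2.99 and 3.66 CPM without injection. It was at 6.68, 9.76, 4.22 and 5.92 CPM in ID8 and at 4.14, 9.95, 11.3 and 15.5 CPM in ID8-FSHR. ID8 replicate 3 and ID8-FSHR replicate 1 lay within the uninjected range, and the other tumour libraries lay above it. The gene was 2.75-fold higher in ID8-FSHR (log2 fold change 1.46, SE 0.36, adjusted p = 0.00304). In ID8 the difference was 0.84 (SE 0.35, adjusted p = 0.0535) and did not pass. It passed without ID8 replicate 3 (adjusted p = 0.0312), ID8-FSHR replicate 1 (0.0132), ID8-FSHR replicate 4 (0.0413) or uninjected replicate 1 (0.0378), and with median-of-ratios scaling (0.0402), DESeq2 (0.0177) or only the 2 groups fitted (0.00722).

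Cyp26a1 encodes the related enzyme that retinoic acid is known to induce, and it moved opposite to Cyp26b1. It was at 15.9, 10.5, 10.3 and 10.1 CPM in the uninjected mice, at 2.28, 2.64, 4.34 and 1.94 CPM in ID8, and at 1.74, 2.45, 1.88 and 1.62 CPM in ID8-FSHR. No tumour library reached the uninjected range. Cyp26a1 fell by 2.06 on the log2 scale in ID8 (SE 0.26, adjusted p = 1.3e-05) and by 2.60 in ID8-FSHR (SE 0.26, adjusted p = 1.9e-06). Its promoter window, chr19:37697558-37697857 on the plus strand, is shown since it was the only other pathway window with the repeat, among 61 windows of 45 genes. The match reads on the minus strand and starts 32 bases before the start site, with the repeat in capitals.
Cyp26a1: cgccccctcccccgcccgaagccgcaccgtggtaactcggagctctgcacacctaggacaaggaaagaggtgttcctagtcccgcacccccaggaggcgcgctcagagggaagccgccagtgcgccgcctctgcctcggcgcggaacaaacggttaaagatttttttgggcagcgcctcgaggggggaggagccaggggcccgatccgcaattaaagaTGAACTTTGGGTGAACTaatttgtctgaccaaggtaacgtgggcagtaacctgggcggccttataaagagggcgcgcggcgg
Both genes with the repeat had a lower mean in tumour lavage than without injection, and the Rarb difference in ID8-FSHR did not pass the test. Of all genes tested 31.4% were called lower in ID8 and 30.6% in ID8-FSHR, and a part of the repeat was not tested.

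Per kilobase of exon, the order of the 9 genes changed with tumour. Without injection Rarg led at 29.4 ± 4.30 CPM per kilobase (SD, n = 4), followed by Aldh1a2 at 23.8 ± 4.38, Rara at 18.1 ± 1.69, Rarb at 5.58 ± 1.81 and Rdh10 at 2.62 ± 0.187. The libraries of Rarg and Aldh1a2 overlapped, as did those of Aldh1a2 and Rara, whereas Rara, Rarb, Rdh10 and Cyp26b1 were separate from one another. In ID8 Rdh10 led at 29.9 ± 4.24, above Rarg at 20.6 ± 1.03, and below these Rara at 15.9 ± 2.73, Aldh1a1 at 15.4 ± 1.78 and Aldh1a2 at 13.6 ± 3.09 overlapped. In ID8-FSHR Rdh10 led at 41.7 ± 9.03, and Rarg, Rara, Aldh1a2 and Aldh1a1 followed at 17.0 to 10.7 with each overlapping its neighbour. Rarb and Cyp26b1 came next in both tumour groups, and Crabp2 and Aldh1a3 were last, under 0.1 in the mean of every group.

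**Figure D3:**
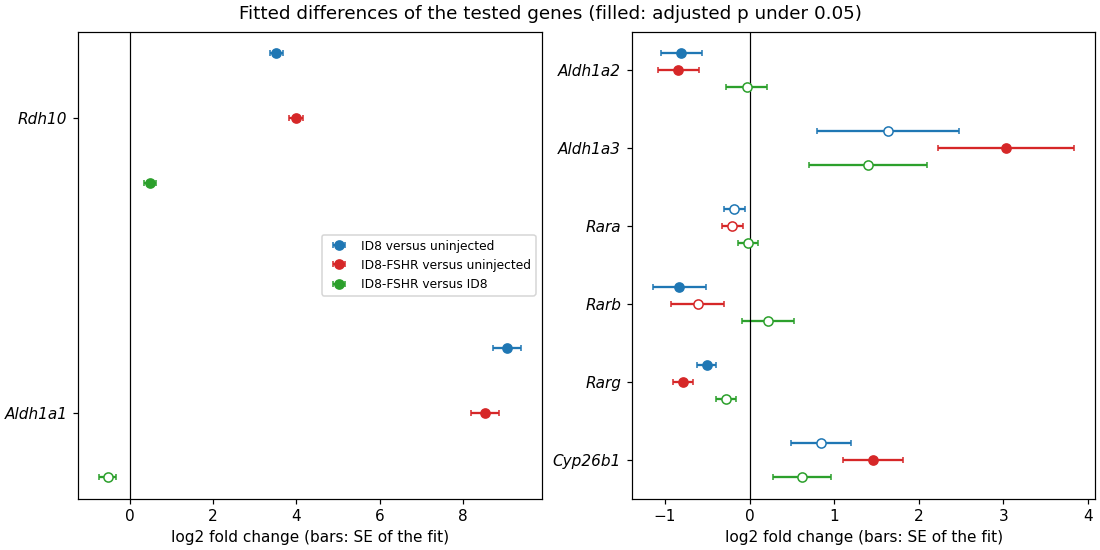
Log2 fold change with its SE for the 8 tested genes in the 3 comparisons. Filled points passed at an adjusted p under 0.05 and open points did not. The Aldh1a1 and Rdh10 points lie at 3.51 or above against uninjected lavage, while the ID8-FSHR against ID8 points lie between -0.53 and 1.40.

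Between the tumour groups, Rdh10 was the gene called. In ID8-FSHR against ID8, 1 of the 8 tested genes was higher and 0 were lower in edgeR's test, where 11.6% of all genes tested were called, 6.04% as higher and 5.56% as lower. At an unadjusted p under 0.05, 2 were lower, Aldh1a1 and Rarg, and the calls of lower numbered 0 with DESeq2 and 1 with limma-voom. Libraries were separate between the groups for 1 gene, Aldh1a3, against 18.5% of all genes, and its difference of 1.40 (SE 0.70) did not pass (adjusted p = 0.209). The median of the 8 was 0.10, beside -0.0062 for all genes. Rdh10 was 1.39-fold higher (log2 fold change 0.48, SE 0.14, adjusted p = 0.0473). This call is fragile: it was lost on leaving out any 1 of 10 of the 12 libraries, at an adjusted p of up to 0.138, and held without ID8 replicate 1 (0.0445) or ID8-FSHR replicate 2 (0.00446). It was also lost with median-of-ratios scaling (0.0534), without a filter (0.0792) and in a fit of the 8 tumour libraries alone (0.0952).

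Aldh1a1 was lower in the mean of ID8-FSHR, at 52.6 ± 15.5 CPM against 76.1 ± 8.78 CPM in ID8 (SD, n = 4 each), but the difference of -0.53 (SE 0.20, adjusted p = 0.107) did not pass. With limma-voom it was -0.58 and passed (adjusted p = 0.0411). Cyp26b1 differed by 0.62 (SE 0.35, adjusted p = 0.265), and by 0.88 (adjusted p = 0.0432) without ID8-FSHR replicate 1. The differences were -0.28 (SE 0.11, adjusted p = 0.129) for Rarg, 0.22 (SE 0.31, adjusted p = 0.685) for Rarb, -0.04 (SE 0.24, adjusted p = 0.943) for Aldh1a2 and -0.02 (SE 0.12, adjusted p = 0.932) for Rara. The signs of Aldh1a2, Rara and Rarb turned on leaving out single libraries. A difference that missed the threshold does not show that the groups were alike. Of the 13 markers of mesothelium and ovarian surface, 6 were called lower in ID8-FSHR than in ID8, against 5.56% of all genes. Of 6 T cell markers 4 were called higher, against 6.04% of all genes. The part of these markers in the values above was not tested.

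The ratio to Defb29, which had no counts without injection, gives these levels relative to a gene of the injected lines. Defb29 was at 26.5, 20.8, 28.4 and 29.1 CPM in ID8 and at 23.8, 8.41, 21.6 and 20.1 CPM in ID8-FSHR. Rdh10 was at 5.53, 5.85, 3.64 and 4.35 times the Defb29 level in ID8 and at 8.50, 15.2, 7.29 and 10.3 times in ID8-FSHR, without overlap. For Aldh1a1 the ratios were 2.95, 3.11, 3.02 and 2.60 in ID8 and 1.73, 4.47, 2.94 and 3.40 in ID8-FSHR, and they overlapped. ID8-FSHR replicate 2, lowest in Defb29, had the highest ratio for both genes. Each of the genes described here had a higher mean ratio in ID8-FSHR, from 2.75 to 4.59 for Rara and from 1.22 to 2.24 for Aldh1a2. In ID8-FSHR replicates 1 to 4 the ratios were 2.76, 9.38, 3.28 and 2.93 for Rara and 0.973, 5.64, 1.29 and 1.07 for Aldh1a2. Both genes overlapped between the groups, and their higher means rest mainly on replicate 2. That library also had the highest ID8-FSHR ratio for Rarg, Rarb, Cyp26b1 and Aldh1a3. Defb29 itself had the lower mean in ID8-FSHR, a difference that did not pass in edgeR's test (adjusted p = 0.262). The ratios of Aldh1a3 did not overlap either. A lower Defb29 raises every ratio, and the share over all genes was not computed, so these separations do not set Rdh10 and Aldh1a3 apart. With the Defb29 level as a covariate in the 8 tumour libraries, the difference was 0.69 for Rdh10 (adjusted p = 0.0277) and -0.28 for Aldh1a1 (adjusted p = 0.50). Which cells carried these transcripts was not measured.

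**Figure D4:**
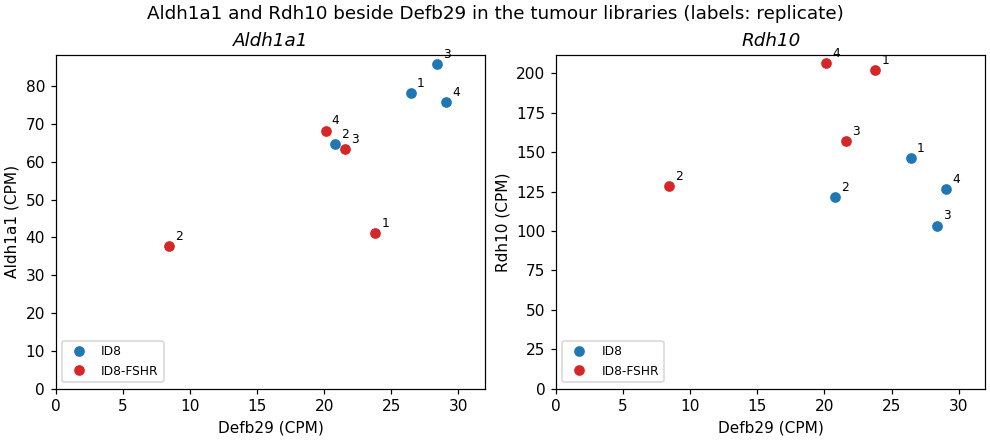
Levels of the synthesis genes Rdh10 and Aldh1a1 against Defb29 in the 8 tumour libraries, in CPM. Each point is a library and the groups are coloured. At Defb29 levels of 20.1 to 23.8 CPM, ID8-FSHR replicates 1, 3 and 4 lie at 157 to 207 CPM of Rdh10, where ID8 replicate 2, at 20.8 CPM of Defb29, lies at 122 CPM. That comparison rests on a single ID8 library. ID8-FSHR replicate 2, at 8.41 CPM of Defb29, lies at 128 CPM of Rdh10, within the ID8 range of 103 to 146 CPM.

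Around these 9 genes, 63 other genes of the retinoid pathway were listed by role, and 45 passed the filter, Rbp2 and Aldh1a7 only through the tumour groups. In ID8 against the uninjected mice 13 of the 45 were higher and 16 lower, with a median log2 difference of 0.0014, and the groups did not overlap for 30. In ID8-FSHR 18 were higher and 17 lower, with a median of -0.01, and 29 did not overlap. Set beside the background shares given above, these counts are near those of the transcriptome. The counts by role below come from short lists. Of all genes tested, 32.7% were higher and 31.4% lower in ID8, and 33.9% and 30.6% in ID8-FSHR. In ID8-FSHR against ID8 1 was higher and 3 were lower, and the median was -0.08.

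**Figure D5:**
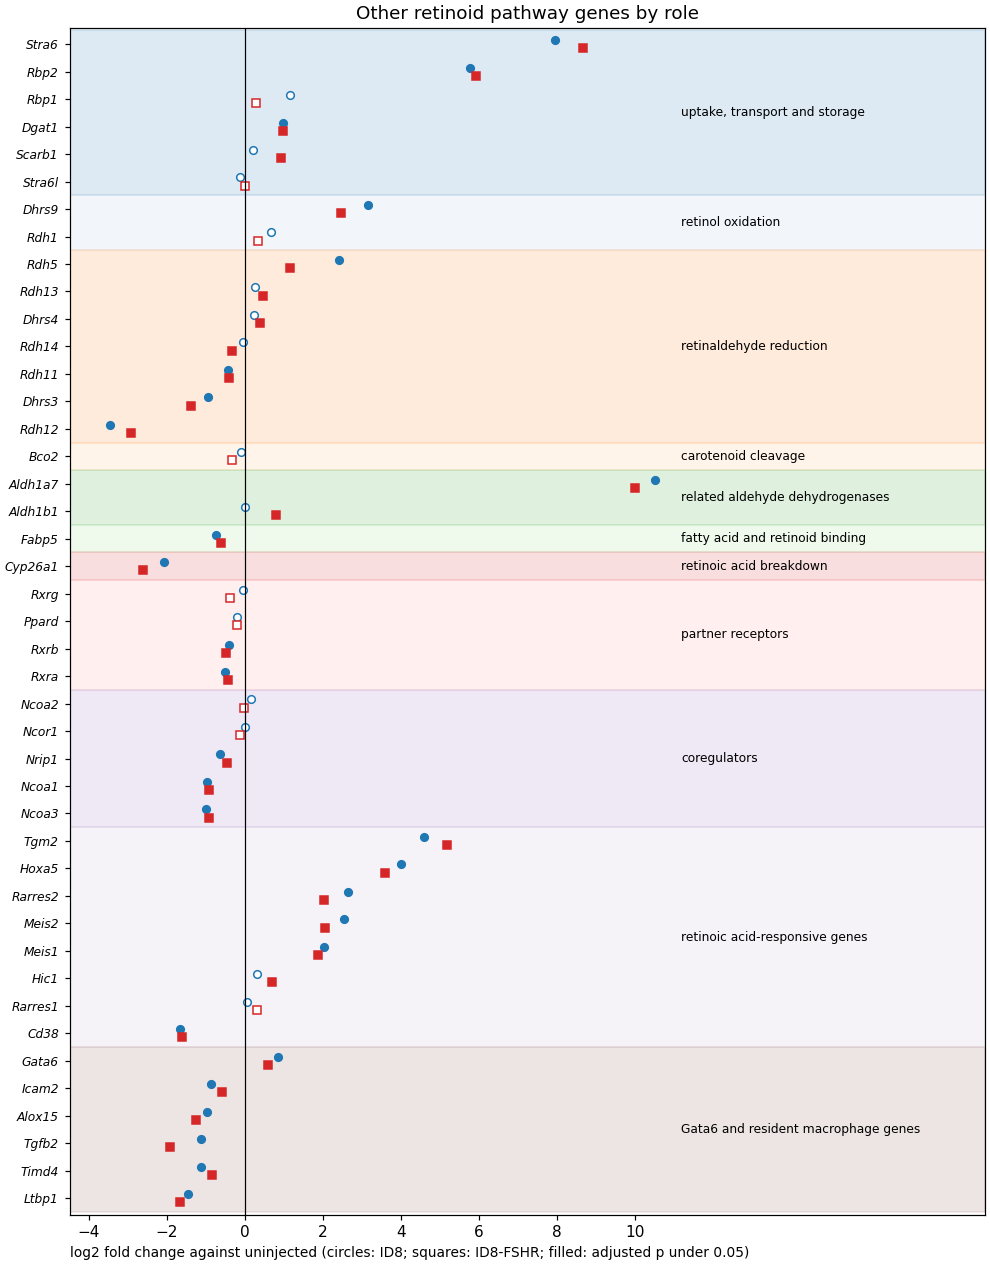
Log2 fold change of tested pathway genes against uninjected lavage, grouped by role, for ID8 and ID8-FSHR. The group for retinaldehyde reduction also holds Rdh5, which encodes a retinol-oxidising enzyme. Filled points passed at an adjusted p under 0.05. Stra6 and Aldh1a7 lie far to the right, Rdh12 and Cyp26a1 to the left, and the partner receptors and coregulators lie at 0.16 or below. The Aldh1a7 points are fitted against 0 counts and have no exact size.

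Among genes of retinol uptake, transport and storage, 3 of 6 tested were higher in ID8 and 4 of 6 in ID8-FSHR, and the others did not pass. The shares of all genes called higher were 32.7% and 33.9%. Stra6, the cell-surface receptor that takes up retinol from its plasma carrier, was at 0.0789, 0.0738, 0 and 0.261 CPM in the uninjected mice, at 27.5, 21.8, 25.1 and 26.9 CPM in ID8, and at 37.4, 30.9, 45.2 and 54.5 CPM in ID8-FSHR. The groups did not overlap. Its log2 fold change was 7.95 (SE 0.39, adjusted p = 3.6e-09) in ID8 and 8.68 (SE 0.39, adjusted p = 2.6e-09) in ID8-FSHR, and the difference between tumour groups of 0.73 did not pass (adjusted p = 0.0644). Of its 20 uninjected counts 12 lay in replicate 4, and without that library the values against uninjected lavage were 8.87 and 9.60. Rbp2, a cellular retinol-binding protein, was at 0.0327 CPM without injection and at 1.79 and 1.99 CPM in ID8 and ID8-FSHR. All 6 of its uninjected counts lay in replicate 4, and leaving that out moved the fitted log2 fold change from 5.78 to 9.61 in ID8 and from 5.93 to 9.76 in ID8-FSHR, so its size is not fixed by these data. Dgat1, which esterifies retinol among other alcohols, rose from 7.32 to 14.5 CPM in both tumour groups. Scarb1, a scavenger receptor that takes up carotenoids and lipoprotein cholesterol, was at 41.6 CPM without injection, 47.9 CPM with ID8 and 79.5 CPM with ID8-FSHR. It was the pathway gene higher in ID8-FSHR than in ID8 (log2 fold change 0.73, SE 0.10, adjusted p = 0.00064), without overlap, and this call held without any 1 of the 12 libraries.

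Of the 8 other genes listed for retinol oxidation, 2 were tested. Dhrs9, a dehydrogenase acting on retinol, was at 1.56 CPM without injection, 14.0 CPM with ID8 and 8.68 CPM with ID8-FSHR, with log2 fold changes of 3.16 and 2.47 (adjusted p = 5.6e-08 and 4.3e-07). Rdh1 stayed under 0.4 CPM and was not called. A list of 7 genes was set up mainly for the reduction of retinaldehyde to retinol, but it also holds Rdh5, which encodes a retinol-oxidising enzyme. Of these 7, 1 was higher and 3 were lower in ID8. In ID8-FSHR 3 were higher and 4 lower. Dhrs3, which binds RDH10 and opposes it, was the most abundant, at 332 CPM without injection, 173 CPM with ID8 and 127 CPM with ID8-FSHR. It fell by 0.94 and 1.39 on the log2 scale (adjusted p = 2.6e-05 and 8.3e-07). Rdh12 fell from 29.5 to 2.69 and 3.90 CPM (log2 fold change -3.45 and -2.92), and Rdh11 from 24.7 to 18.4 and 18.6 CPM (-0.42 and -0.41). Rdh14 was lower in ID8-FSHR (-0.34, adjusted p = 0.0064), a call lost without ID8-FSHR replicate 2 (adjusted p = 0.0745). Rdh5 was higher in ID8 (2.43, adjusted p = 0.00052) and in ID8-FSHR (1.16, adjusted p = 0.044), the latter lost without any 1 of 7 libraries (adjusted p of up to 0.105). Dhrs4 and Rdh13 were higher in ID8-FSHR (0.39 and 0.46).

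The remaining enzymes and binding proteins gave few calls. Aldh1b1 was at 4.19 CPM in uninjected and ID8 lavage and 7.25 CPM in ID8-FSHR, and its call in the latter (log2 fold change 0.79, adjusted p = 0.0449) was lost without any 1 of 7 libraries (adjusted p of up to 0.104). Fabp5, a lipid carrier that can bring retinoic acid to PPARD, fell from 49.2 CPM to 29.3 CPM in ID8 (-0.75, adjusted p = 0.0040) and to 32.3 CPM in ID8-FSHR (-0.61, adjusted p = 0.0133). Bco2, which cleaves carotenoids, was at 7.04 to 8.90 CPM in the group means and was not called.

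Of the 4 partner receptors, 2 were lower in each tumour group and the others did not pass. The shares of all genes called lower were 31.4% in ID8 and 30.6% in ID8-FSHR. Rxra was at 140.4 CPM without injection, 98.5 CPM with ID8 and 104 CPM with ID8-FSHR (log2 fold change -0.51 and -0.44, adjusted p = 0.0088 and 0.0204). The second call ended on leaving out replicate 1, 3 or 4 of ID8-FSHR or replicate 1 of the uninjected group, at an adjusted p of up to 0.0620. Rxrb fell from 43.8 to 33.1 and 31.3 CPM (-0.40 and -0.49). Ppard was at 22.6 to 26.2 CPM and Rxrg under 1 CPM in the group means, with no call. Of 6 coregulators, 3 were lower in each tumour group. The coactivators Ncoa3, at 378, 188 and 199 CPM, and Ncoa1, at 135, 68.4 and 71.4 CPM, fell by 1.01 and 0.98 in ID8 and by 0.93 and 0.92 in ID8-FSHR. Nrip1 fell by 0.64 and 0.45. The corepressor Ncor1, at 333 to 364 CPM in the group means, and the coactivator Ncoa2 did not pass.

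Genes known to respond to retinoic acid moved in both directions. Of 9 tested, 6 were higher and 1 lower in ID8, and 7 were higher and 1 lower in ID8-FSHR, with medians of 2.54 and 2.03. The shares of all genes called higher were 32.7% and 33.9%, and of those called lower 31.4% and 30.6%. Tgm2, a transglutaminase, was at 10.3 ± 1.70 CPM without injection, 251 ± 35.7 CPM with ID8 and 374 ± 212 CPM with ID8-FSHR (SD, n = 4 each), and rose by 4.61 and 5.18 on the log2 scale. Within ID8-FSHR, replicates 2 and 4 were at 543 and 567 CPM of Tgm2 and replicates 1 and 3 at 155 and 230.2 CPM. The homeobox genes Meis1 (2.03 and 1.87), Meis2 (2.54 and 2.06) and Hoxa5 (4.02 and 3.58) were higher in ID8 and ID8-FSHR. Cd38, an ectoenzyme of myeloid and B cells, fell from 366 CPM to 116 and 120 CPM (-1.66 and -1.61). Cyp26a1, described above, and Cd38 were thus lower in the lavage in which Tgm2 and these homeobox genes were higher. Markers of mesothelium and ovarian surface were higher, and those of B cells lower, in the same libraries, and their part was not tested.

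Gata6, whose level in large resident macrophages depends on retinoic acid, was higher in tumour lavage. It was at 109, 90.1, 108 and 98.5 CPM in the uninjected mice, at 178, 187, 177 and 191 CPM in ID8, and at 169, 144, 159 and 133 CPM in ID8-FSHR. No tumour library reached down to the uninjected range. The log2 fold change was 0.85 (SE 0.08, adjusted p = 1.5e-06) in ID8 and 0.58 (SE 0.08, adjusted p = 4.8e-05) in ID8-FSHR. The other 5 genes of the list, which GATA6 is known to support or which mark these macrophages, were lower in both tumour groups. Alox15 fell by 0.97 and 1.26, Ltbp1 by 1.46 and 1.65, Tgfb2 by 1.12 and 1.93, Timd4 by 1.12 and 0.84, and Icam2 by 0.86 and 0.58 on the log2 scale in ID8 and ID8-FSHR. Gata6 is also made by cells other than macrophages, and which cells carried it was not measured.

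In ID8-FSHR against ID8 the 3 lower pathway genes were Dhrs9 (-0.69, adjusted p = 0.0385), Dhrs3 (-0.45, adjusted p = 0.0365) and Tgfb2 (-0.82, adjusted p = 0.0220). Each call rested on single libraries. It was lost in 8 of 12 omissions for Dhrs9 (adjusted p of up to 0.110), in 7 of 12 for Dhrs3 (up to 0.115) and in 3 of 12 for Tgfb2, namely ID8 replicates 3 and 4 and ID8-FSHR replicate 2 (up to 0.0747).

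By Pearson's r of log2(CPM + 0.5) over the 12 libraries, the named genes most like Rdh10 among 13948 were Ecscr (0.998), Elfn2 (0.997) and Wnt4 (0.997). For Aldh1a1 they were Tfcp2l1 (0.998), Spire2 (0.998) and Parva (0.997). These values follow mainly the gap between tumour and uninjected lavage, since within groups r fell to 0.904 for Ecscr and 0.753 for Tfcp2l1. Aldh1a2 was most like Eps8 (0.980), Olfm1 (0.969) and Rragc (0.951), with 0.962, 0.926 and 0.899 within groups. Rarg was most like Ecm1 (0.976), Glb1 (0.971) and Cln3 (0.966). Rarb was most like Coro1c (0.959), Mfsd7a (0.936) and Slc9a3r2 (0.935), Rara like Ube2d-ps (0.942) and Osm (0.918), and Cyp26b1 like Plau (0.960), Slc9a3r1 (0.957) and Cdc42ep2 (0.956). The 12 libraries share their groups and their depth, and these values describe likeness only.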

How the data were processed

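RNA from 100 ng per sample was made into ribosomal RNA-depleted libraries, per the labels. The authors deposited whole-number read counts per gene, made with bcl2fastq 2.20, STAR 2.7.9a and featureCounts of Subread 1.6.4 on GRCm38.p6, per the submitters' processing notes. Not given in the sources used here were the strand setting, the treatment of multiply mapping reads and the annotation release. Groups and replicate numbers came from the labels, which call the samples biological replicates, and no 2 libraries of a group agreed within sampling noise.

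All 12 libraries were fitted by group with edgeR 4.0.16 (R 4.3.3, robust quasi-likelihood test, TMM scaling, default filter, Benjamini-Hochberg adjustment over 16915 genes). A call is an adjusted p under 0.05, and SE is the log2 fold change divided by the root of F. CPM are counts scaled by effective library size, also given per kilobase of merged exons in GENCODE M21. The genes and lists were chosen with earlier results of these data known. Named were the 9 genes, the 4 most abundant tested genes of each pathway role and genes behind counts of 5 or fewer, and the 3 genes most like each. Some genes that this rule takes are left out and not reported here. Most per-gene values of marker genes are left out for space. Alternatives were median-of-ratios scaling, other filters, DESeq2 1.42.0, limma-voom (limma 3.58.1), only the groups compared, a threshold of 0.01, a replicate block, no top 10 genes, a Defb29 covariate and leaving out each library. On simulated data for ID8 against uninjected (16915 genes), the test recovered 64.2% of 109 genes changed 2-fold and 83.5% of 91 changed 4-fold, with 5 false calls. In the real comparison 64.1% of genes were called, far more than were changed in the simulation. These rates therefore do not describe the test in the real data.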

Additional observations from a re-analysis of the deposited data

Results flagged for a closer look

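Of 27 sets of 4 libraries (9 genes in 3 groups), 3 had a library far from its group. Chance gives about 1 in 20 for continuous, normally spread values. That rate does not hold for Crabp2, whose few and tied counts are easily flagged. Rarb was at 29.6 CPM in ID8-FSHR replicate 2, where the other 3 libraries lay at 15.3 to 16.6 CPM. Crabp2 was at 0.240 CPM, 12 counts, in ID8-FSHR replicate 3, with 2 counts in each of the other 3. Crabp2 was also at 0.0436 CPM, 2 counts, in uninjected replicate 4, with 0 in the other 3, which is under the limit that 0 counts allow.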

How the results depend on the processing

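Against the uninjected mice, the calls of Rdh10, Aldh1a1 and Rarg held in all 21 alternatives for each tumour group. In ID8 the genes called higher numbered 4 with DESeq2, and those called lower 1 at a threshold of 0.01. For ID8-FSHR against ID8, genes called higher numbered 0 with median-of-ratios scaling, no filter, the threshold of 0.01 or only the 2 groups, and 0 to 1 without single libraries, and 1 was called lower with limma-voom (Aldh1a1, -0.58, adjusted p = 0.0411). Other pathway genes called higher numbered 2 with only the 2 groups, DESeq2, limma-voom or the Defb29 covariate, and 1 to 5 without single libraries. Those called lower numbered 5 with a filter of 1 CPM in 4 libraries or limma-voom, 6 with DESeq2, 0 at 0.01, and 0 to 4 without single libraries. Over all genes, 428 were higher and 279 lower at 0.01, 1540 higher and 1591 lower with DESeq2, 604 lower with only the 2 groups and 526 with the covariate. Leaving out single libraries gave 555 to 1731 higher (569 and 555 without ID8 replicates 3 and 4, 1731 and 636 without ID8-FSHR replicates 1 and 4) and 406 to 1405 lower (494, 466 and 406 without ID8 replicates 1, 3 and 4, 553 without ID8-FSHR replicate 4). Signs turned for Aldh1a2 (0.09 and 0.03 without ID8 replicates 2 and 4, 0.07 and 0.10 without ID8-FSHR replicates 1 and 4, range -0.33 to 0.10), for Rara (0.085 and 0.01 without ID8 replicates 2 and 4, 0.05 without ID8-FSHR replicate 4, range -0.10 to 0.085) and for Rarb (-0.053 without ID8-FSHR replicate 2, range -0.053 to 0.56, and -0.29 with the covariate). The causes were not tested. These data do not show that replicate numbers pair the samples: same-numbered deviations correlated at -0.22 to 0.35, and 3 of 12 were highest with their own number. Such weak correlations cannot exclude a batch shared by number. With a replicate block, Rdh10 stayed higher in ID8-FSHR than in ID8 (adjusted p = 0.0325), Aldh1a1 was lower (-0.58, adjusted p = 0.0352), 1 other pathway gene was lower, and Rarb passed in ID8-FSHR against uninjected (-0.62, adjusted p = 0.0021). Depth limits Crabp2 and Aldh1a3, at most 42 counts in any library.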
